A study of Dicentrarchus labrax with 23 samples.

Results

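The genes described here encode muscle and cytoskeleton proteins of the European sea bass intestine: myosins, actins, troponins, calponins, filamins, tubulins, kinesins, villins, plastins, keratins, spectrins, vimentins and proteins that carry one of these words in their name. They were chosen by name from the list of genes that the study called different between the pooled anterior and middle intestine (AI-MI) and the posterior intestine (PI). Of the 3652 named genes on that list, 66 carried such a word and 5 were dropped, namely unconventional myosin-Va, myosin-Vb, myosin-Vc and myosin-VIIa and a smooth muscle-like myosin light chain kinase. This left 61 genes, each with 1 probe, of the 14147 probes on the array. Since the list was made from the AI-MI vs. PI contrast on these same arrays, differences between AI-MI and PI are given for these genes as a description, without a test. The comparison of AI with MI was not used by the choice and is tested below.

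The intestine was taken from fast growing sea bass at midsummer after an overnight fast, with no other treatment in any group. From front to back, the samples were the anterior intestine (AI), adjoining the pyloric caeca, the middle intestine (MI), from the central tract, and PI, with the rectum in it. Whole segments were frozen, so mucosa, muscle wall and other tissue are mixed in each RNA sample, and neither age nor sex is given for any group. The study states 8 individuals per segment, so its list of called genes may also rest on an MI array that is not among the samples here. Arrays numbered 8 for AI, 7 for MI and 8 for PI. Each received RNA of 1 segment of 1 fish in 1 colour, and nothing in the sources says if arrays with the same replicate number came from the same animal.

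Smooth muscle surrounds the fish intestine in layers and contracts when the regulatory light chain of its myosin is phosphorylated, whereas the contraction of striated muscle is switched by calcium through troponin. The enterocytes that line the lumen carry a brush border, a carpet of microvilli that are each built on a core bundle of actin filaments, with villin and plastin as bundling proteins and keratins as the intermediate filaments beneath. Microtubules, kinesins and the Arp2/3 complex, which nucleates branched actin, are used by every cell.

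Values are log2 signals scaled so that 0 is the 75th percentile of an array. The level of a probe is compared between arrays and never with that of another probe, since probes differ in brightness. The 75th percentile of the processed signal was 388 to 1183 intensity units over the 23 arrays, and 82.8 to 93.1% of all probes were well above background by the scanner's test. The number of arrays limits the precision. AI replicate 2 stood apart among the AI arrays. It was the AI array farthest toward the side of MI, at times past the MI mean, for 27 of the 57 genes tested (those bright enough, as given below). MI replicate 7 had the lowest MI value for 20 of them. In PI, the array farthest toward the side of AI-MI was replicate 7 for 18 genes and replicate 8 for 13. Results that rest on these arrays are given with and without them.

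Of the 61 genes, 57 gave signals well above background on at least 7 arrays and entered the fit over 12894 probes. The remaining 4 were too dim: actin, adductor muscle (L2_39622) and myosin regulatory light chain 2, skeletal muscle isoform type 2 (L3_61812) were above background on 0 of 23 arrays, while the ventricular/cardiac isoform of that light chain (L3_58327) and skeletal troponin C (L3_59535) reached it on 3 and 6 arrays. All 57 genes tested were called between AI-MI and PI with limma at an adjusted p under 0.05, as the choice of genes brings with it, against 44.1% of all probes tested. Signals were higher in AI-MI for 27 genes, by 1.53- to 8.31-fold, and higher in PI for 30, by 1.50- to 9.42-fold where both sides were measured. Myosin-Va-like, higher in PI, and the atrial myosin light chain, higher in AI-MI, were not well above background on the low side, so that only lower bounds are given for them. A difference of at least 2-fold was seen for 26, a count for which no share over all probes was computed. The smallest differences were 1.50-fold for gamma-tubulin complex component 4 and 1.52-fold for plastin-2, both higher in PI. These lower ends go with the study's list, whose fold-changes start near 1.50, and no name was given for genes just outside it. The groups did not overlap for 9 genes higher in PI (4.34% of all probes tested behaved so) and for 2 genes higher in AI-MI (4.03% of all probes). These genes were chosen as called, so counts among called probes stand closer to them. Of all probes, 559 were apart with PI higher and 519 with AI-MI higher. Called in these directions were 2912 and 2772.

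**Figure D1:**
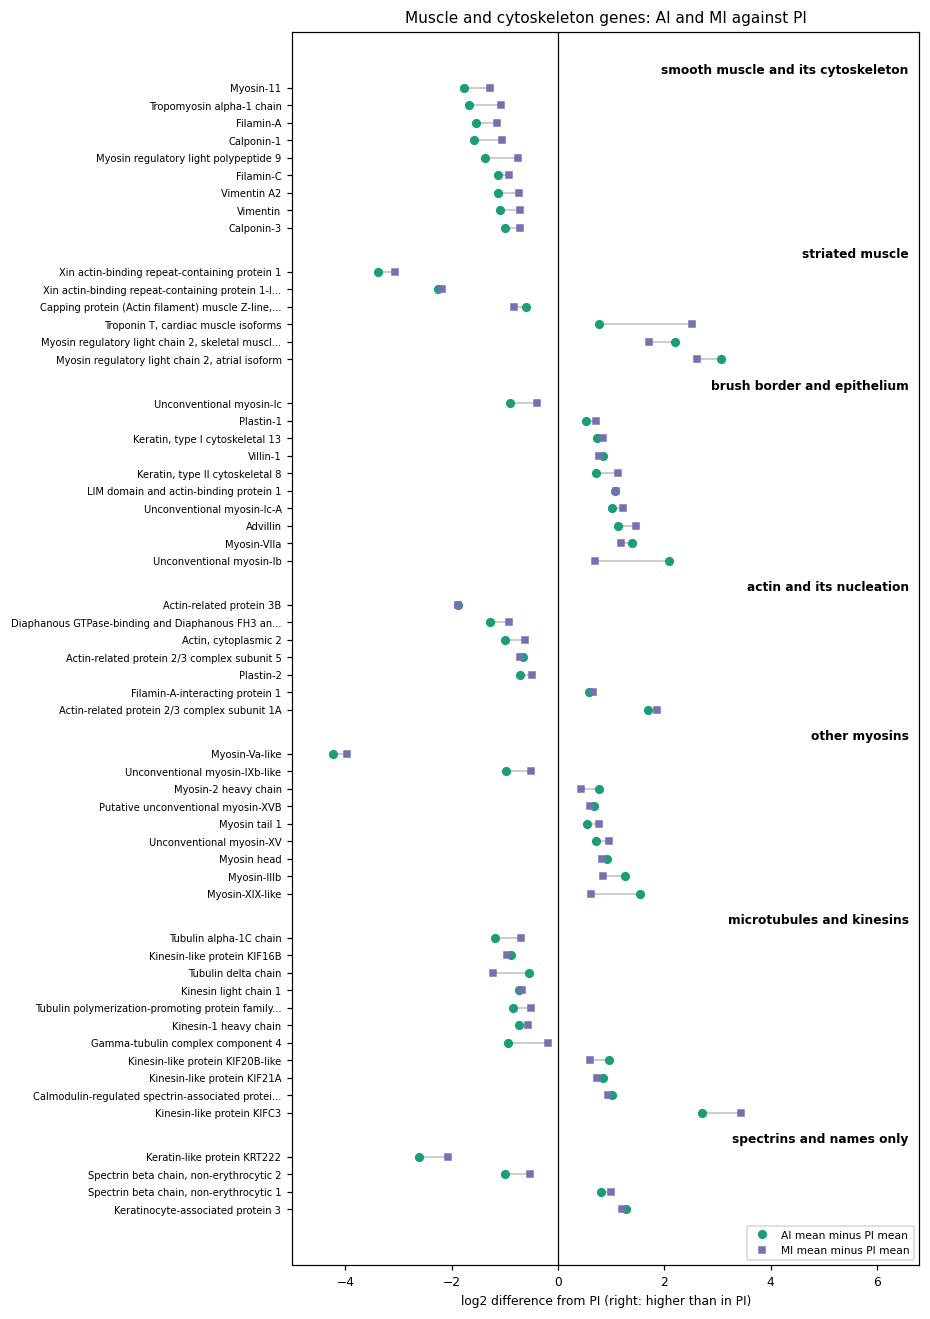
Log2 difference of the AI mean (circles) and the MI mean (squares) from the PI mean for 56 of the genes tested, grouped by role, with positive values for signals higher than in PI. The 9 genes of smooth muscle and its supporting filaments all lie left of 0, with MI nearer to PI than AI is. Right of 0 lie 9 of the 10 brush border and epithelial genes. The points of myosin-Va-like and the atrial light chain are measured signals that include a side not well above background.

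The genes of smooth muscle and its supporting filaments were all higher in PI. This held for 9 of 9 genes, by 1.81- to 2.90-fold relative to AI-MI, and for each of them the MI mean lay between the AI and the PI means. In bulk tissue, more cells of a type and more RNA per cell cannot be told apart.

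Myosin-11 (L12_88231), the heavy chain of smooth muscle myosin, had log2 signals of -0.74 to 1.13 (median 0.43) in AI, 0.12 to 1.47 (median 0.60) in MI and 1.63 to 2.60 (median 2.06) in PI. The PI arrays did not overlap with those of AI and MI, while AI and MI overlapped over most of their range. The PI mean was 2.90-fold above AI-MI, 3.38-fold above AI and 2.43-fold above MI. Myosin regulatory light polypeptide 9 (L12_86177), the light chain whose phosphorylation starts contraction, ranged from 3.37 to 5.06 (median 4.13) in AI, from 3.95 to 5.28 (median 4.85) in MI and from 4.91 to 6.22 (median 5.44) in PI. Here the highest AI and MI arrays reached into the PI range, and the fold-change of PI over AI-MI was 2.11.

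Calponin-1 (L12_79735), which binds actin in smooth muscle and restrains the myosin motor, had -1.82 to -0.02 (median -0.83) in AI, -1.32 to 0.62 (median -0.45) in MI and -0.01 to 1.36 (median 0.39) in PI. The AI arrays all lay below the PI arrays, though the nearest arrays were almost level, and MI overlapped with both. Calponin-3 (L12_84944), a calponin that is not restricted to muscle in mammals, was 1.81-fold higher in PI than in AI-MI, with log2 differences of AI-MI minus PI of -0.86 over all arrays and -1.41 within slide 3. Tropomyosin alpha-1 chain (L3_61825), which lies along the actin filament, had means of -1.51 ± 0.44 in AI (SD, n = 8), -0.92 ± 0.65 in MI (SD, n = 7) and 0.16 ± 0.59 in PI (SD, n = 8). Its lowest PI array, at -0.75, lay below the highest AI-MI array, at -0.14, and the mean difference was 2.62-fold.

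Filamin-A (L12_81105), which cross-links actin filaments and ties them to integrins, ranged from -1.92 to -0.28 (median -1.42) in AI, from -1.81 to -0.24 (median -0.85) in MI and from -0.22 to 0.75 (median 0.01) in PI. Its groups were apart, with the lowest PI array only just above the highest MI array, and the PI mean was 2.56-fold that of AI-MI. Filamin-C (L2_78193), the filamin of muscle in mammals, was 2.05-fold higher in PI, with SDs of 0.67 (n = 8) in AI, 0.89 (n = 7) in MI and 0.88 (n = 8) in PI and overlapping groups. Vimentin (L3_68715), the intermediate filament of mesenchymal cells, and vimentin A2 (L1_63638) were 1.90- and 1.92-fold higher in PI, again with overlap.

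**Figure D2:**
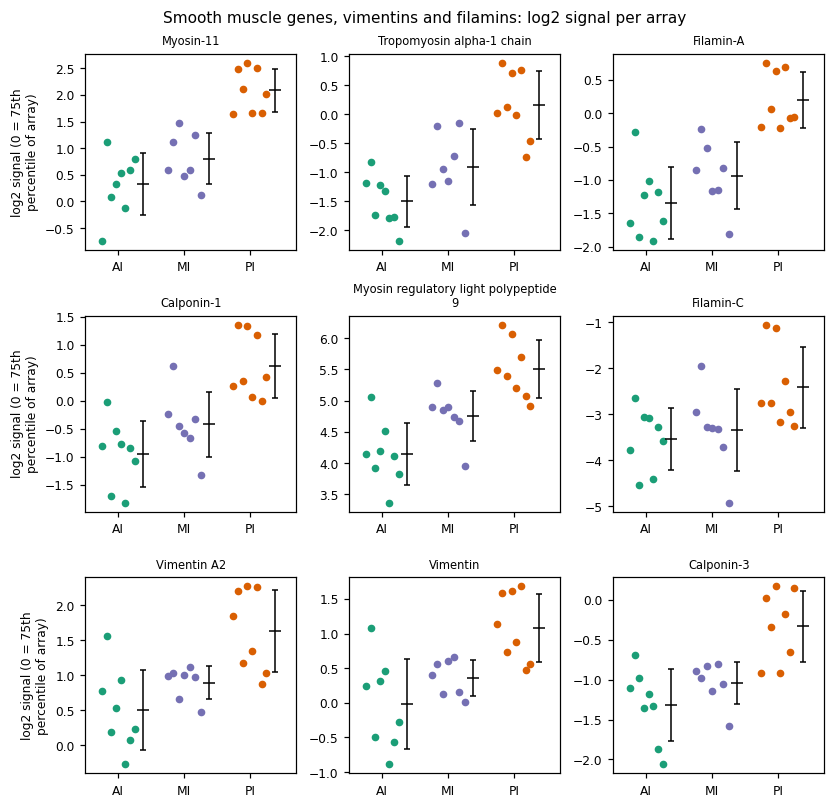
Log2 signal of the 9 smooth muscle and supporting genes on each array, by segment (8 AI, 7 MI and 8 PI arrays), where 0 is the 75th percentile of an array and each bar is the mean ± SD. In every panel the mean climbs from AI over MI to PI, and for myosin-11 and filamin-A all PI points lie above all others.

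The genes named after striated muscle proteins went both ways. Of the 7 tested, 4 were higher in PI and 3 in AI-MI. Those higher in PI were mostly well measured, as was troponin T on the AI-MI side. The light chains higher in AI-MI were each above background on 10 of 15 AI-MI arrays and on at most 1 of 8 PI arrays.

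Xin actin-binding repeat-containing protein 1 (L12_90275), which binds actin at the attachment sites of striated muscle in mammals and chicken, had -1.89 to 0.80 (median -0.78) in AI, -1.88 to 0.64 (median -0.29) in MI and 2.17 to 3.22 (median 2.73) in PI. The probe named Xin actin-binding repeat-containing protein 1-like (L1_18286) had 1.0 to 2.69 (median 1.70), 1.55 to 2.65 (median 1.80) and 3.71 to 4.29 (median 4.15) in the same order. For both genes all PI arrays stood clear of all AI and MI arrays. The fold-changes of PI over AI-MI were 9.42 and 4.67, the former being 10.5 against AI and 8.34 against MI. Within slide 3, where 3 PI arrays faced 4 of AI-MI, the log2 difference of AI-MI minus PI of the former was -2.37, against -3.24 over all arrays.

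The alpha 2 subunit of the muscle Z-line capping protein (L2_25730), which caps the barbed end of actin filaments, was 1.64-fold higher in PI, with means of 2.47 ± 0.24 in AI (SD, n = 8), 2.25 ± 0.18 in MI (SD, n = 7) and 3.08 ± 0.28 in PI (SD, n = 8).

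Troponin T, cardiac muscle isoforms (L2_70525), the troponin that anchors the complex to tropomyosin, was highest in MI. Its signals were -4.82 to -1.16 (median -2.32) in AI, -1.87 to -0.18 (median -0.47) in MI and -4.58 to -1.36 (median -3.53) in PI. AI spanned a wide range that overlapped with both other segments, and 5 of 7 MI arrays lay above every array of AI and PI. The fold-change of MI over PI was 5.73 and that of AI over PI 1.72.

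Myosin regulatory light chain 2, atrial isoform (L3_78029) was above background on 5 of 8 AI, 5 of 7 MI and 0 of 8 PI arrays. Its signals were -8.17 to -2.80 (median -5.85) in AI and -8.02 to -4.51 (median -5.78) in MI, against measured values of -9.47 to -7.36 (median -8.86) in PI. It was thus at least 2.49-fold higher in AI-MI than in PI, where PI was not well above background. This bound is taken between the mean of all AI-MI arrays and the lowest signal well above background, or the probe's own signal where higher, on each PI array. The measured means were -5.87 and -8.73. The skeletal muscle isoform (L3_25261) was above background on 7 of 8 AI, 3 of 7 MI and 1 of 8 PI arrays, with -7.40 to -5.36 (median -5.82), -7.18 to -5.99 (median -6.40) and -8.84 to -7.28 (median -8.27). The PI arrays lay below those of AI and MI, except that PI replicate 8, at -7.28, was above AI replicate 2, at -7.40. Its difference was 3.92-fold, but a single PI array measured it, and with a normexp background correction the log2 differences of the atrial and the skeletal isoforms fell from 2.86 and 1.97 to 0.65 and 0.46. That correction adds an offset of 50 to every signal, which by itself shrinks differences between dim signals.

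Skeletal troponin C (L3_59535), the calcium sensor of the troponin complex, was not tested, being above background on 5 of 8 AI, 0 of 7 MI and 1 of 8 PI arrays. Of the AI arrays, 5 lay between -5.74 and -5.20, while replicates 2, 4 and 5 had -9.05, -7.65 and -7.39. MI had -8.63 to -7.37 (median -8.37) and PI -10.01 to -6.68 (median -9.02). AI replicate 2 was thus the lowest AI array for troponin C, as for the atrial and skeletal light chains, while it was the highest AI array for troponin T, at -1.16. A list of 8 striated muscle markers shares 6 genes with those above and adds myozenin-1 and leiomodin-2. Its mean level was taken over the 5 genes tested, which do not include troponin C or the light chains left untested. It was -5.85 to -4.32 over the AI arrays, -5.98 to -4.60 over the MI arrays and -7.48 to -6.11 over the PI arrays. The 4 light chains and troponin C of the list were above background on at most 1 of 8 PI arrays. These mean levels go with the genes the list holds. It leaves out both Xin probes and, 2.25- and 1.81-fold higher in PI, the M-line proteins M-protein, striated muscle (L3_82641) and unc-89 (L12_87310), whereas the 5 of its genes that were tested were all higher in AI-MI.

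**Figure D3:**
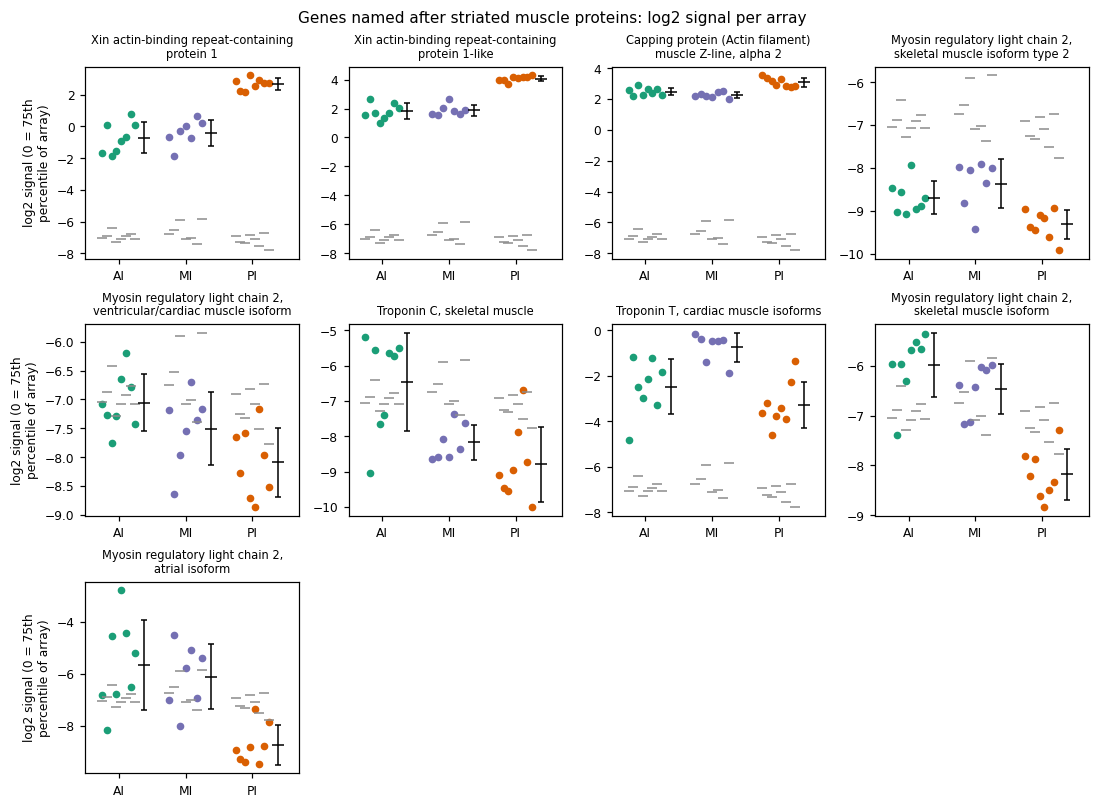
Log2 signal of 9 genes named after striated muscle proteins on each array, by segment, with the mean ± SD as bars and, as grey dashes, the lowest signal called well above background on the same array. Both Xin probes and the capping protein lie far above the dashes and are highest in PI. The light chains and troponin C lie around or below the dashes on most PI arrays. Some AI and MI points of the atrial and skeletal light chains and some AI points of troponin C lie above them.

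Genes of the brush border and the epithelial cytoskeleton were higher in AI-MI for 9 of 10, by 1.53- to 2.72-fold, with unconventional myosin-Ic as the exception. Villin-1 (L3_77279), which bundles and severs actin in microvilli, had -0.37 to 0.75 (median 0.15) in AI, -0.57 to 0.50 (median 0.24) in MI and -1.25 to -0.09 (median -0.57) in PI. AI and MI had nearly the same level, and their lower arrays overlapped with PI. The difference was 1.76-fold, a log2 difference of 0.81 over all arrays that was 0.31 within slide 1 and 1.20 within slide 2. Advillin (L12_89223), a protein of the villin family, was 2.44-fold higher in AI-MI, with -0.77 to 0.80 (median 0.18) in AI, -0.32 to 1.1 (median 0.48) in MI and -1.54 to -0.52 (median -0.89) in PI. A single AI array, replicate 7, lay within the PI range of advillin, and its log2 difference of 1.29 was 0.76 within slide 3.

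Plastin-1 (L12_89432), the other bundling protein of microvilli, had means of 5.53 ± 0.19 in AI (SD, n = 8), 5.73 ± 0.23 in MI (SD, n = 7) and, 1.53-fold lower than in AI-MI, 5.01 ± 0.32 in PI (SD, n = 8). Keratin, type I cytoskeletal 13 (L12_81020) and keratin, type II cytoskeletal 8 (L12_85741), members of the 2 keratin types that pair into filaments, were 1.73- and 1.87-fold higher in AI-MI. With quantile normalization the log2 differences of plastin-1 and keratin 13 went from 0.61 and 0.79 to 0.23 and 0.45, and within slide 1 to 0.32 and 0.36. That of keratin 8 was 0.91 over all arrays and 0.46 within slide 3. LIM domain and actin-binding protein 1 (L12_86746), which stabilises actin filaments, had means of 3.12 ± 0.45 in AI (SD, n = 8), 3.13 ± 0.47 in MI (SD, n = 7) and 2.04 ± 0.39 in PI (SD, n = 8), or 2.12-fold more in AI-MI.

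The myosins of this group are single-headed or membrane-linked motors. Unconventional myosin-Ic-A (L1_45593) had -0.71 to 0.09 (median -0.09) in AI, -0.62 to 0.28 (median 0.10) in MI and -1.60 to -0.79 (median -1.27) in PI. The highest PI array was below every AI and MI array, at a 2.16-fold difference. Unconventional myosin-Ic (L12_85385), which carries nearly the same name, went the other way, with 0.66 to 1.99 (median 1.17) in AI, 1.08 to 2.12 (median 1.66) in MI and 1.65 to 2.61 (median 2.04) in PI, where it was 1.58-fold higher. Myosin-VIIa (L12_80987), a motor of actin-based protrusions, was 2.46-fold higher in AI-MI. Unconventional myosin-Ib (L1_5843) was highest in AI, with -4.03 to -1.71 (median -2.26) against -4.58 to -1.94 (median -4.32) in MI and -5.04 to -3.83 (median -4.50) in PI. Of its AI arrays, replicate 2 alone was as low as PI, and of its MI arrays, replicate 7 alone was as high as the other AI arrays. The fold-change over PI was 4.27 for AI and 1.62 for MI.

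As markers measured beside these groups, the mean level of 9 smooth muscle genes was -0.56 to 0.91 over the AI arrays, -0.31 to 1.29 over the MI arrays and 1.01 to 2.15 over the PI arrays, and that of 6 enterocyte genes was 4.13 to 4.66, 3.96 to 4.62 and 1.73 to 3.38. All 9 smooth muscle markers were higher in PI and all 6 enterocyte markers in AI-MI. The enterocyte list leaves out uptake genes that the study reported as higher in PI, such as cubilin, protein amnionless, the ileal sodium/bile acid cotransporter and gastrotropin. The smooth muscle list holds smoothelin-like protein 1 (L12_77032), 2.08-fold higher in PI, but neither smoothelin-like protein 2 (L2_65008) nor the smooth muscle-like myosin light chain kinase (L2_36168), which were 2.90- and 1.72-fold higher in AI-MI. All 4 leukocyte markers, plastin-2 among them, were higher in PI, with mean levels of -0.23 to 0.47 in AI, -0.06 to 1.13 in MI and 0.46 to 1.44 in PI. All 3 haemoglobin genes and all 11 genes of pancreatic digestive enzymes were higher in AI-MI. The markers were taken from the same list of called genes, 4 of the smooth muscle markers, villin-1 and plastin-2 are themselves among the genes described, and the part of such differences in cell make-up in the results above was not tested.

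Actins and the proteins that nucleate their filaments were grouped with plastin-2 and filamin-A-interacting protein 1, the latter named here after its value was seen. Of the 7 genes tested in this group, 5 were higher in PI, and filamin-A-interacting protein 1 (L12_85808) was 1.53-fold higher in AI-MI. Actin-related protein 3B (L2_58427), a form of a core subunit of the Arp2/3 complex, had -5.11 to -3.55 (median -4.35) in AI, -5.47 to -3.57 (median -4.35) in MI and -3.65 to -1.80 (median -2.40) in PI. AI and MI had nearly the same median, and of the PI arrays replicate 8 alone reached into their range. The difference was 3.69-fold, a log2 difference of -1.88 that was -0.87 with normexp. The gene whose name joins the 3 domains of a diaphanous formin (L2_4845), a type of protein that elongates unbranched actin filaments, was 2.16-fold higher in PI with no overlap between the groups, the highest AI-MI array being at -2.32 and the lowest PI array at -2.31. Its log2 difference went from -1.11 to -0.71 with normexp. Subunit 1A of the Arp2/3 complex (L12_87983) went the opposite way. It had 4.82 to 6.26 (median 5.95) in AI, 5.85 to 6.12 (median 6.03) in MI and 2.43 to 4.82 (median 4.29) in PI, a 3.42-fold difference in favour of AI-MI with contact between the groups at 4.82. Subunit 5 of it (L12_47586) was 1.60-fold higher in PI, a gene named here after its value was seen.

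Among the other myosins, 7 of 9 were higher in AI-MI, by 1.53- to 2.16-fold. Myosin-Va-like (L2_66142), named after a class of two-headed cargo carriers, was 1 of the 2 higher in PI. It was well above background on 8 of 8 PI arrays, at -4.87 to -4.24 (median -4.55), and on 0 of 15 AI-MI arrays, where the measured values were -9.40 to -7.68. It was thus at least 4.68-fold higher in PI, and the log2 difference of the measured means went from -4.10 to -0.33 with normexp. Myosin-XIX-like (L2_21567), a motor of mitochondria in mammals, had -2.08 to 0.70 (median -0.54) in AI, -2.02 to -1.13 (median -1.44) in MI and -2.37 to -1.65 (median -2.21) in PI, where AI was broadly scattered. Myosin-IIIb (L1_60010), a motor with a kinase domain, was 2.10-fold higher in AI-MI, a log2 difference of 1.07 that was 0.48 with normexp.

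Of the 11 genes of microtubules and their motors, 7 were higher in PI, all by less than 2-fold, and 4 in AI-MI. Kinesin-like protein KIFC3 (L12_59925), a motor that runs to the minus end of microtubules and is found at epithelial junctions in mammals, had -1.35 to 0.72 (median -0.41) in AI, -0.23 to 1.09 (median 0.19) in MI and -4.07 to -1.46 (median -3.35) in PI. The groups were apart, with PI replicates 7 and 8 the highest PI arrays, at -1.46 and -2.01. The difference was 8.31-fold over all arrays, or 3.06 on the log2 scale, 4.0 within slide 2 and 1.95 within slide 3, which holds PI replicates 7 and 8. Calmodulin-regulated spectrin-associated protein 1-B (L1_62963), of a family that caps microtubule minus ends, was 1.97-fold higher in AI-MI, and tubulin alpha-1C chain (L12_61288), a building block of microtubules, was 1.95-fold higher in PI. PI was free of overlap with AI-MI for KIF16B and kinesin-1 heavy chain, which were 1.88- and 1.57-fold higher there, both named here after their values were seen. With normexp the log2 difference of KIF16B went from -0.91 to -0.05, though it was well above background on 14 of 15 AI-MI and 8 of 8 PI arrays. The offset of 50 in that setting by itself shrinks differences between dim signals.

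Of the remaining 4 genes, the keratin-like protein KRT222 (L2_59300) was 5.14-fold higher in PI, with -4.01 to -1.44 (median -3.26) in AI, -3.61 to -1.41 (median -2.47) in MI and -0.81 to -0.13 (median -0.38) in PI and no overlap. Spectrin beta chain, non-erythrocytic 1 (L2_49782), part of the actin lattice under the plasma membrane, was 1.87-fold higher in AI-MI. Keratinocyte-associated protein 3 (L12_89644), which is no keratin and entered by its name, was 2.37-fold higher in AI-MI.

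To see where the middle segment stood, the MI mean was placed against the AI and PI means. It lay between them for 39 of the 57 genes (68.4%), close to the 66.3% of all called probes. Among genes higher in PI it did so for 25 of 30 (83.3%, against 65.7% of all called probes higher in PI), and among genes higher in AI-MI for 14 of 27 (51.9%, against 67.0%). All 9 genes of smooth muscle and its supporting filaments but 4 of 10 brush border genes had MI in between. These counts rest on the arrays that chose the genes and carry no test. They include myosin-Va-like, whose AI and MI signals were not well above background on any array.

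Whether AI and MI differed was tested on the 15 arrays of these segments with limma over all 12894 probes. No probe passed an adjusted p of 0.05 (0 called, 0% of the probes; the lowest adjusted p was 0.0971), and 1638 probes, 12.7%, had an unadjusted p under 0.05. The methods' t-test with the same adjustment also called 0 of them. Among the members 0 of 57 were called and 12 (21.1%) had an unadjusted p under 0.05, 8 of them higher in MI (6.44% of all probes were) and 4 higher in AI (6.26%). The median difference of AI minus MI was -0.20 over the members against 0.02 over all probes, and 38 of 57 members were higher in MI, against 46.3% of all probes. For the 9 genes of smooth muscle and its supporting filaments the median was -0.40 with 9 of 9 higher in MI. It was -0.15 for the 10 brush border genes, with 7 higher in MI, and 0.09 for the 9 other myosins, with 4 higher in MI. These counts hold myosin-Va-like, which entered the fit through its PI arrays. It was well above background on 0 AI and 0 MI arrays, so its place between AI and MI carries no information. No such shares were computed among called probes alone, from which the members were drawn.

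Gamma-tubulin complex component 4 (L2_64490), part of the ring that seeds microtubules, had the smallest p of the members. It had -3.18 to -1.87 (median -2.61) in AI and -2.24 to -1.41 (median -1.98) in MI, where AI replicate 2 was the highest AI array and the others lay below every MI array. The log2 difference was -0.76 ± 0.18 (SE), a 1.69-fold higher signal in MI, with adjusted p = 0.181 in limma. Its differences were -0.88, -0.35 and -1.04 within slides 1, 2 and 3. Troponin T, whose values are given above, differed by -1.74 ± 0.47 (SE), 3.33-fold higher in MI, with adjusted p = 0.216 in limma and within-slide differences of -2.16, -1.64 and -1.39. Unconventional myosin-Ib differed by 1.40 ± 0.41 (SE), 2.63-fold higher in AI, with adjusted p = 0.216 in limma and within-slide differences of 1.33, 1.48 and 1.41.

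Of the smooth muscle genes, myosin regulatory light polypeptide 9 was 1.53-fold (adjusted p = 0.274, limma) and tropomyosin alpha-1 chain 1.50-fold higher in MI (adjusted p = 0.371). KIFC3 was 1.65-fold, unconventional myosin-Ic 1.42-fold and keratin 8 1.34-fold higher in MI. Higher in AI were myosin-XIX-like by 1.92-fold, tubulin delta chain (L3_59063), a tubulin of centrioles, by 1.60-fold and myosin-2 heavy chain (L2_54097) by 1.25-fold. The adjusted p of these 6 genes in limma ranged from 0.290 for KIFC3 to 0.392 for tubulin delta chain, and their direction was the same within each of the 3 slides.

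The number of calls between AI and MI changed most with 1 array, AI replicate 2. AI replicate 2 was the AI array farthest toward the side of MI for 10 of the 12 genes, and MI replicate 7 was the MI array farthest toward AI for 8 of them. Some of these AI values, such as that of tubulin delta chain, went past the MI mean. Leaving out the array farthest toward the other segment by itself widens a difference and can lower its standard error. Without any 1 of the other AI arrays, limma called 0 probes. Without AI replicate 2, limma called 588 probes (4.56%) and 6 members. These were gamma-tubulin complex component 4 (adjusted p = 0.00998, 1.82-fold higher in MI), unconventional myosin-Ib (0.0235, 3.08-fold higher in AI), troponin T (0.0312, 3.80-fold higher in MI), tubulin delta chain (0.0461, 1.87-fold higher in AI), myosin regulatory light polypeptide 9 (0.0475, 1.68-fold higher in MI) and unconventional myosin-Ic (0.0497, 1.53-fold higher in MI). Over the 20 settings computed for each gene, the adjusted p of these 6 ranged from 0.00998 to 0.370, 0.0235 to 0.381, 0.0312 to 0.370, 0.0461 to 0.584, 0.0475 to 0.438 and 0.0497 to 0.475. Without MI replicate 7, 40 probes and 1 member, unconventional myosin-Ib (adjusted p = 0.0475), were called. A joint fit with the PI arrays called 49 probes (0.38%) and 0 members.

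**Figure D4:**
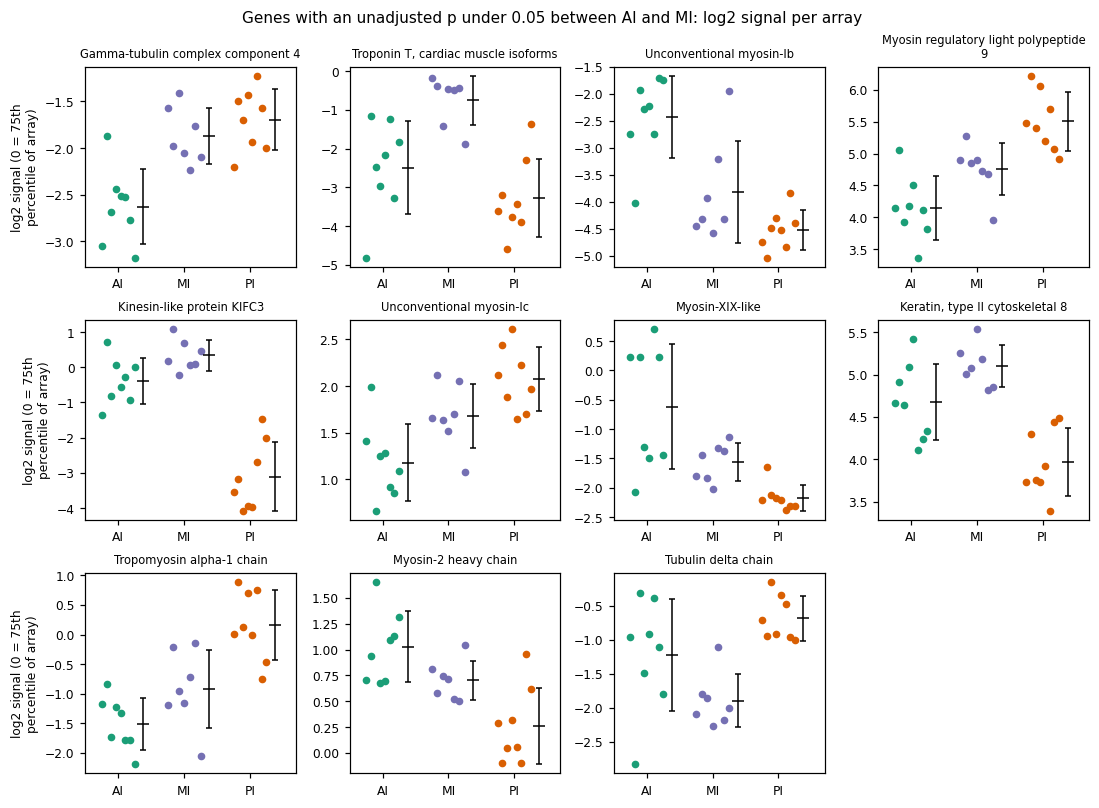
Log2 signal on each array, by segment, of 11 of the genes with an unadjusted p under 0.05 between AI and MI, with the mean ± SD as bars and the arrays of a segment in order of replicate number. The second AI point lies farthest toward the side of MI for 9 of these 11 genes, in some panels past the MI mean.

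Whether smooth muscle genes varied together between fish was examined within each segment, across 8 AI, 7 MI or 8 PI arrays, since deviations from a segment's mean were not used to choose the genes. In PI, myosin-11 went with calponin-1 (Pearson's r = 0.95, exact permutation p = 0.0012, adjusted p = 0.0146 over 21 relations; Spearman's rho = 0.83, adjusted p = 0.108) and with filamin-A (r = 0.95, exact permutation p = 0.0014, adjusted p = 0.0146; rho = 0.83, adjusted p = 0.108). Without the 2 arrays farthest from the median of myosin-11 these r were 0.91 and 0.92, and with the slide means removed 0.98 and 0.97. In PI, replicates 2, 4 and 6 were the 3 highest arrays for each of these 3 genes and, for calponin-1 and filamin-A, stood apart from the other 5. How far the correlations describe this split was not tested, since either side holds too few arrays for a test of its own. The other 10 relations of myosin-11 with calponin-1, the light polypeptide 9, tropomyosin alpha-1 chain and filamin-A did not pass. Over all 12 the median r was 0.72, from 0.00 for tropomyosin in AI to 0.95, and 0.44 to 0.98 with slide means removed. No relation passed by rho.

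Against villin-1, r of myosin-11 was -0.57 in AI, -0.62 in MI and 0.24 in PI, with adjusted p of 0.246, 0.245 and 0.580 by the same exact permutation test. Without the 2 farthest arrays the value in MI turned to 0.38. Troponin C had r of 0.80 in AI, 0.46 in MI and -0.70 in PI with the skeletal light chain and -0.43, -0.55 and -0.35 with troponin T. Of these 6, 0 passed by the exact permutation test (lowest adjusted p = 0.0844). The values of troponin C in MI and PI run on signals mostly not above background, since it was above background on 0 of 7 MI and 1 of 8 PI arrays and the skeletal light chain on 3 of 7 and 1 of 8, and the 0.80 in AI rested on single arrays, being -0.13 without the 2 farthest. All genes of an array share its hybridisation and scaling, whose part in these correlations was not tested.

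**Figure D5:**
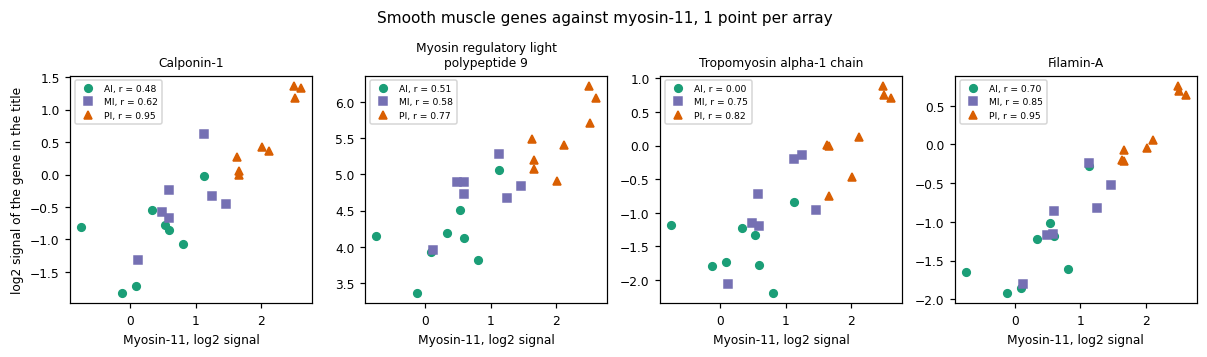
Log2 signal of 4 smooth muscle genes against that of myosin-11, 1 point per array, with AI as circles, MI as squares and PI as triangles and Pearson's r within each segment in the legend. The PI points of calponin-1 and filamin-A lie close to a line (r = 0.95 for both), in a set of 3 high and 5 lower arrays, whereas tropomyosin in AI shows no trend (r = 0.00).

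Other genes of the same structures, taken by name from the study's list, were set beside the members. Of 26 tested partners of smooth muscle and the sarcomere, 20 were higher in PI and 6 in AI-MI, with a median log2 difference of -0.94. Among them were myopalladin (L12_87603), a Z-line protein, at 3.86-fold and the LIM domain protein probed by L12_82149 at 3.57-fold higher in PI, and leiomodin-2 (L3_66498), an actin nucleator of striated muscle, at 8.11-fold and PDZ and LIM domain protein 2 (L12_87062) at 5.17-fold higher in AI-MI. For leiomodin-2 only 2 of 8 PI arrays were above background, so that its fold is taken against a mostly unmeasured side. Between AI and MI, 20 of the 26 were higher in MI (46.3% of all probes were) and the median was -0.49. In limma, 12 had an unadjusted p under 0.05, against 12.7% of all probes, and none was called. The share among probes called between AI-MI and PI, from which all lists were drawn, was not computed. Genes of a list are measured on the same arrays, so such counts are not of independent observations. AI replicate 2 had the highest mean level of the AI arrays for this list. Of 14 cell-matrix adhesion genes 11 were higher in PI, led by beta-parvin (L12_73257) and testin (L12_75584) at 3.07- and 2.35-fold, with tensin-4 (L3_62755) and integrin alpha-6 (L3_73793) at 3.60- and 2.55-fold on the AI-MI side, the latter above background on 2 of 8 PI arrays.

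Of 9 further microvillus genes 8 were higher in AI-MI, by a median log2 difference of 1.09 over the list. The epidermal growth factor receptor kinase substrate 8-like protein probed by L3_55231 was above background on 0 of 8 PI arrays. Cadherin-related family member 5 (L12_84664), which links the tips of microvilli, was 2.88-fold higher in AI-MI, and espin (L2_58717), an actin bundler, was the exception, at 2.83-fold higher in PI. Desmosome and plakin genes, which anchor keratin filaments, were higher in AI-MI for 9 of 12. Periplakin (L12_87488) and envoplakin (L12_88023) led at 9.21- and 5.54-fold, whereas envoplakin-like (L2_64679) and plakophilin-2 (L12_87288) were 5.57- and 1.94-fold higher in PI. All 12 were higher in MI than in AI, 6 of them with an unadjusted p under 0.05 in limma (12.7% of all probes had one) and none called. AI replicate 2 had the highest mean level of the AI arrays here too. Such a p was seen for 7 of 14 cell-matrix adhesion, 1 of 9 microvillus and 0 of 17 actin filament turnover genes.

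Among 17 genes of actin filament turnover, 11 were higher in PI and 6 in AI-MI. Gelsolin (L12_88843), which severs and caps actin filaments, was 88.1-fold higher in AI-MI, and its relative adseverin (L2_52612) 27.6-fold, with 2 of 8 PI arrays above background for the latter. On the PI side stood formin-binding protein 1-like (L2_32177) and formin-like protein 1-like (L2_6384), at 2.99- and 1.99-fold. For these lists, too, the AI-MI vs. PI direction is that of genes picked by the same contrast and is no independent evidence.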

How the data were processed

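Cy3-labelled RNA of single segments was measured on a custom 1-colour Agilent array. The authors extracted spots with Agilent Feature Extraction 11.5.1.1, and the deposited processed signal is an intensity from which background and spatial trends were removed, with no scaling from array to array. The deposited median pixel signals and local backgrounds are raw intensity values of the same spots. The authors' deposited table holds log2 values that follow the 75th-percentile scaling used here with each probe's median set to 0. Spots marked as outliers (1 to 47 per array) were left out, and the log2 processed signals of a probe's spots were averaged and expressed relative to the array's 75th percentile. The fit covered probes that were well above background on 7 or more of 23 arrays and was made with limma 3.58.1 (lmFit, eBayes, two-sided) in R 4.3.3, with Benjamini-Hochberg adjustment over 12894 probes, and other values were computed in Python 3.11.15. The fitting was tested on simulated data.

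The members, roles, lists and tests were chosen with earlier results of these data known, and the lists match names in the study's list of called genes. Whole-word matching was added to some patterns, and inhibitors of trypsin were left out, after wrong matches such as "intestinal" for testin had been seen. The genes named are all smooth muscle, striated muscle and brush border members, the 3 with the largest difference in each other role, members with an unadjusted p under 0.05 between AI and MI, and the 2 largest per direction of each list. The alternatives were quantile normalization, normexp background correction (offset 50, on median signals), the authors' table, no filter on dim probes, slide or replicate number as a block, the methods' t-test, an eBayes trend, a joint fit of 3 segments and each array left out. Fits within the 3 slides and without PI replicates 7 and 8 were added after values had been seen. Probe sequences are not printed here, and 1 member, which stays in the counts, is not reported here by name.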

Additional observations from a re-analysis of the deposited data

Results flagged for a closer look

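For the named members that were tested, each segment was searched for an array far from the others (Dixon's test). Of 123 groups of arrays, 11 held one, and chance flags about 1 in 20 groups.

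AI replicate 2 was far below the other AI arrays for unconventional myosin-Ib (L1_5843), at -4.03 against -2.75 to -1.71, for myosin-IIIb (L1_60010), at -6.71 against -5.30 to -4.24, and for myosin regulatory light chain 2, skeletal muscle isoform (L3_25261), at -7.40 against -6.30 to -5.36. AI replicate 7 was low for advillin (L12_89223), at -0.77 against 0.08 to 0.80.

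PI replicate 6 was low for subunit 1A of the Arp2/3 complex (L12_87983), at 2.43 against 3.99 to 4.82, and for keratin, type I cytoskeletal 13 (L12_81020), at 6.91 against 7.88 to 8.71, and it was high for the diaphanous formin gene (L2_4845), at -1.31 against -2.31 to -1.91. PI replicate 8 was low for actin-related protein 3B (L2_58427), at -3.65 against -2.60 to -1.80. PI replicate 2 was high for myosin-XIX-like (L2_21567), at -1.65 against -2.37 to -2.12.

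MI replicate 3 was low for villin-1 (L3_77279), at -0.57 against 0.15 to 0.50. MI replicate 5 was high for tubulin delta chain (L3_59063), at -1.10 against -2.26 to -1.79.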

How the results depend on the processing

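All 57 members tested kept their direction between AI-MI and PI under each of the 32 settings in which their differences were computed, the removal of PI replicates 7 and 8 together among them, and 27 remained higher in AI-MI in each. The genes were chosen by this contrast on these same arrays, so a kept direction is no independent evidence. The number of probes called between AI-MI and PI (5684) was 1410, 3508 and 2033 within slides 1, 2 and 3, which hold fewer arrays, and 5192 to 5805 when single arrays were left out. With normexp, the calls split into 3910 for AI-MI and 2139 for PI, against 2772 and 2912, and the median difference of all probes was 0.13 against 0.01. The differences of 9 members then moved by more than 1 SD, such as that of KIF16B from -0.91 to -0.05, while within slides 1, 2 and 3 those of 7, 3 and 6 members did. The normexp offset of 50 by itself shrinks differences between dim signals, and other causes of these changes were not tested. MI lay between AI and PI for 37 to 41 members when single arrays were left out.

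Between AI and MI, the calls over all probes were 0 to 588 and those of members 0 to 6 when single arrays were left out, with 588 and 6 without AI replicate 2 and 40 and 1 without MI replicate 7, and the joint fit called 49 probes. The 12 genes with an unadjusted p under 0.05 kept their direction in all 20 settings. With normexp, 5 of the 21 correlations within segments passed, against 2. Leaving out the array farthest toward the other segment by itself widens a difference, and other causes of these changes were not tested.

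Equally numbered arrays tended to deviate together, though the sources do not say that a number marks 1 fish. Most equally numbered pairs also shared a slide, and the part of the slide in these correlations was not tested. Between AI and MI their deviations correlated at 0.006 to 0.449 over probes (median 0.326, against -0.060 for unequal numbers), above 0.1 in 6 of 7 pairs, and with the replicate block 0 probes and 0 members were called between AI and MI. AI and PI arrays of equal number correlated at 0.189 to 0.590 (median 0.351, against -0.047), above 0.1 in 8 of 8 pairs, MI and PI arrays at 0.003 to 0.553 (median 0.435, against -0.039), and the replicate block called 6806 probes between AI-MI and PI.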

Other observations

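Actin, cytoplasmic 2 (L12_84053), a non-muscle actin, had log2 signals of 5.77 to 6.93 (median 6.36) in AI, 5.91 to 7.30 (median 6.85) in MI and 6.78 to 7.90 (median 7.53) in PI, and was 1.77-fold higher in PI than in AI-MI. The study's qPCR took β-actin, a close relative, as its reference gene. For its selected genes the study reported qPCR and array fold-changes that were closely correlated and nearly equal. Whether the probe of actin, cytoplasmic 2 also binds β-actin transcripts was not tested.

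Pairs of related names went opposite ways. Unconventional myosin-Ic was 1.58-fold higher in PI and unconventional myosin-Ic-A 2.16-fold higher in AI-MI, and of the non-erythrocytic spectrin beta chains, chain 1 was 1.87-fold higher in AI-MI and chain 2 (L2_48836) 1.71-fold higher in PI, though with normexp the log2 difference of chain 2 went from -0.77 to -0.25. Plastin-1 was 1.53-fold higher in AI-MI and plastin-2 (L12_85030), the plastin of leukocytes, 1.52-fold higher in PI. Envoplakin and envoplakin-like, subunits 1A and 5 of the Arp2/3 complex, and leiomodin-1 (L12_89859, 1.87-fold higher in PI) and leiomodin-2 were split in the same manner. These pairs were picked after their values had been seen.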
